A study of Mus musculus with 4 samples.

Results

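Grb10, Ddc and Cobl are neighbouring genes of the Grb10 imprinted locus on mouse chromosome 11, and their reads per parental allele were examined together with the allelic methylation listed around them. The members were the 3 rows named Grb10, Ddc and Cobl among 46320 gene identifiers of the RNA tables, and the 2 regions between 11.7 and 12.5 Mb of chromosome 11 among 1613 listed regions of methylation difference. Prefrontal cortex of female mice, 14 weeks old, had been profiled by RNA-seq and by MethylC-seq, in which bisulfite treatment shows which cytosines are methylated. All animals were hybrids of C57BL6J and Spretus parents that carried a mutation of the noncoding RNA Xist on the maternal chromosome, and tissue of 2 individuals from separate litters had been pooled. There were 2 libraries per assay and no other genotype or treatment, so the comparison is between the Spretus and the C57 allele of the same libraries. No label states the direction of the cross. The strain order was taken to give the mother first, so that Spretus is called paternal and C57 maternal. Xist reads were 98.6% Spretus in RNA library 1 and 98.9% in library 2. If the mutation stops Xist RNA, the mutated maternal copy is thus the C57 one, the same direction.

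Imprinted genes are expressed from the allele of one parent, and the choice is carried by DNA methylation laid down in egg or sperm. Grb10 encodes an adaptor protein that binds the activated insulin and insulin-like growth factor receptors and dampens their signal. In the mouse it is known for switching parent by tissue: most tissues use the maternal allele, whereas neurons use the paternal allele and start transcription at promoters inside the gene. Ddc encodes aromatic L-amino acid decarboxylase, which makes dopamine and serotonin, and has been reported as paternally expressed in the developing heart. Cobl encodes cordon-bleu, a protein that nucleates actin filaments and shapes dendrites, and has been reported as maternally expressed in the yolk sac.

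Allele-assigned reads numbered 4768237 in RNA library 1 and 1291903 in RNA library 2, and 47.9% and 48.0% of the autosomal ones were Spretus. Of the reads of Xist, the mutated gene, 2158 were Spretus and 31 C57 in library 1, and 795 were Spretus and 9 C57 in library 2. The neuronal and glial marker genes of cortex were present, with summed FPKM of 1987 and 452 for 4 pan-neuronal genes and 249 and 36.1 for 5 astrocyte genes in libraries 1 and 2. FPKM stands by name for fragment levels scaled by length and depth. Deposited values were higher in library 1 by a median of 5.62-fold over 8970 genes with an FPKM of at least 1 in each library. The 2 libraries were thus not on 1 FPKM scale, and the reason was not tested. After rescaling by the 5.62-fold median, the summed oligodendrocyte markers of library 2 were 0.561 times those of library 1. The labels do not state that each library had its own animals. P-values of the allelic fits therefore reflect only the spread between these libraries, pooled in part over genes, which may be technical.

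The 2 starts of Grb10 in the RefSeq annotation (GRCm38.p6, minus strand) differed in their sequence, and a methylation difference was listed only at the internal one. Promoter windows of 300 bases, 250 before and 50 after each start, are shown for both because the listed regions touch one and not the other. CpG dinucleotides, the main sites of DNA methylation, are in capitals.
Grb10 upstream promoter, chr11:12037371-12037670: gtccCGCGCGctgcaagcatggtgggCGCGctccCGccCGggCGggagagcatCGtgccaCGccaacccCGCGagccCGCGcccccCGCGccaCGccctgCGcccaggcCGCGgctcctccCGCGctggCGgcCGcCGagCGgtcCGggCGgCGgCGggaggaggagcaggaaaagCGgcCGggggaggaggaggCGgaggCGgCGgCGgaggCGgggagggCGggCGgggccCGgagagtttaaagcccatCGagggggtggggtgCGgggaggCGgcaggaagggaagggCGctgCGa
Grb10 internal promoter, chr11:12027922-12028221: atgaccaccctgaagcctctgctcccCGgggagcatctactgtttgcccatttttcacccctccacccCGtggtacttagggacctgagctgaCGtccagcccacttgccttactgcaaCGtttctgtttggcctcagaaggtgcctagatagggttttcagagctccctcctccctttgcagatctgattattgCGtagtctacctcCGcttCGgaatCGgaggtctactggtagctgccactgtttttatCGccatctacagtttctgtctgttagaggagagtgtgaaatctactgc
The stretch of the internal promoter under the listed region, chr11:12027969-12028127: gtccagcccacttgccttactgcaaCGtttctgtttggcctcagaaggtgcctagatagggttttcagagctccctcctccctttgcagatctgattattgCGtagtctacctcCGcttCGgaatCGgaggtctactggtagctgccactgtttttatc

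The upstream window held 45 CpG dinucleotides and 80% G and C, which placed it above 98.1% of 32851 RefSeq promoter windows in CpG number. The internal window, 9449 bases downstream, held 9 CpG dinucleotides and 52.3% G and C, close to the median of 7 CpG per window. The listed region covers bases 95 to 253 of the internal window, from 156 bases before the start to 2 bases after it. Within it lie 5 whole CpG dinucleotides, and each of its edges cuts 1 more, so that it touches 7 of the 9 in the window. The letters TGCCGC, a motif known to be bound by the imprinting factor ZFP57 in mouse, were searched on both strands. They occurred once in the upstream window, on the opposite strand, and not in the internal window, and 11.6% of all windows hold them. The other, longer listed region at Grb10 lies outside these windows and was not searched. The starts of Ddc and Cobl, 2 each, also lie on the minus strand. Ddc held 2 CpG dinucleotides in its upstream and 5 in its internal window, and Cobl 42 in its upstream and 0 in its internal window. No listed region touched any of these 4 windows. The list gives no levels outside its regions, so the levels there and at the upstream Grb10 window are not known.

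Methylation around the internal Grb10 start was low on the Spretus allele and high on the C57 allele in both listed regions. At the promoter region, chr11:12027969-12028127 (159 bp), the level was 0.156 on Spretus and 0.981 on C57, a difference of -0.83. The downstream region, chr11:12025177-12025693 (517 bp), lay 2278 to 2794 bases downstream of the internal start, inside the Grb10 gene body. Its level was 0.0423 on Spretus and 0.904 on C57, a difference of -0.86. The Spretus allele was thus less methylated than C57 in both, and the residual Spretus level was higher at the promoter region. Between the regions lay 2275 bases that the list does not cover, and whose levels are not known. The list gives 1 level per allele with no coverage and no value per library, so these differences have no replicate check and no test, and their depth is unknown. Whether cytosines of the C57 reference are another base in Spretus there was not analysed here.

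**Figure D1:**
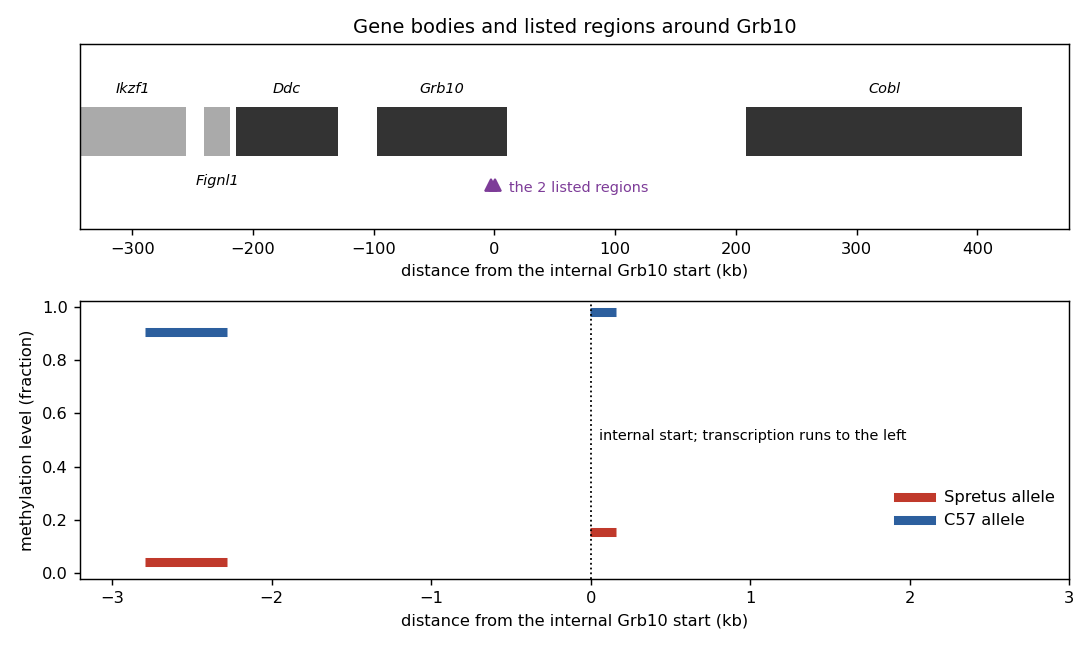
Top, gene bodies (dark, the members; grey, Ikzf1 and Fignl1) and the 2 listed regions (triangles) by distance in kb from the internal Grb10 start. Bottom, methylation level (fraction) of each allele over the span of each region: Spretus lies at 0.0423 and 0.156, C57 at 0.904 and 0.981.

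Among the 1006 autosomal regions of the list that have levels, 268 were higher on Spretus and 738 on C57, so the direction at Grb10 is the more common one. In size of difference, the downstream region stood above 63.9% and the promoter region above 58.7% of autosomal regions, whose median difference was 0.747. In length they stood above 88.7% and 59.5%. Only 31 of the autosomal regions (3.08%) touched a RefSeq promoter window and 21 (2.09%) covered a start, as the Grb10 promoter region does. The downstream region is 1 of 130 C57-higher autosomal regions of at least 200 bp with a difference of at least 0.5. No other region was listed near the locus. The nearest ones on chromosome 11 lay 2.16 Mb away at lower coordinates and 10.9 Mb away at higher coordinates, where a region of 1478 bp belongs to the imprinted gene Zrsr1. Neither Ddc nor Cobl had a listed region within 2 kb of its body.

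**Figure D2:**
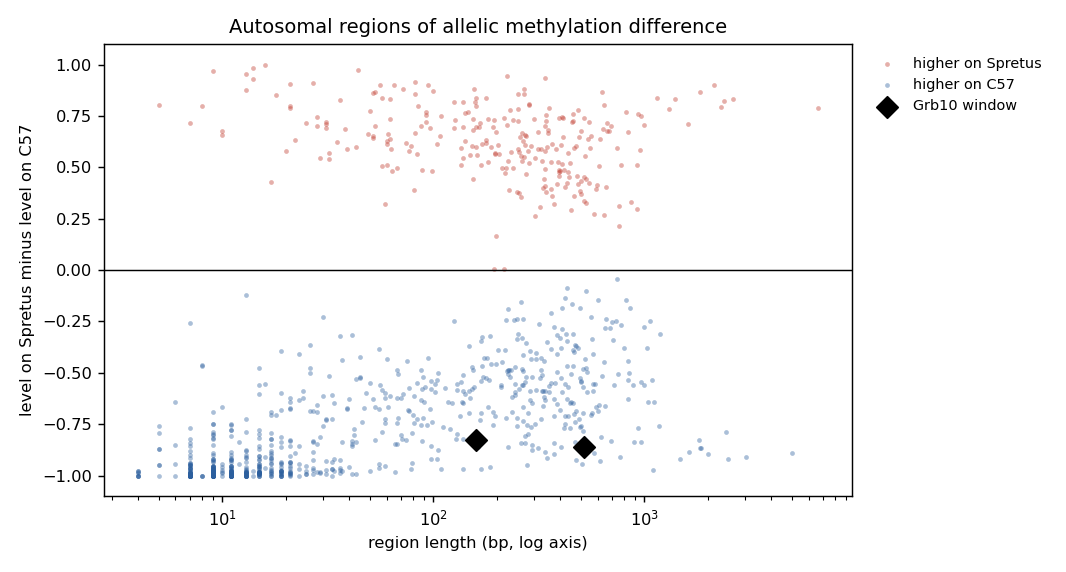
Length (bp, log axis) and methylation level on Spretus minus that on C57 of the 1006 autosomal regions with levels, each a point. The 2 regions at Grb10 (diamonds) lie at -0.83 and -0.86, among regions higher on C57.

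Grb10 was read mostly from the Spretus allele in each library. In library 1, 257 reads were Spretus and 43 C57, a Spretus share of 85.7% (exact Clopper-Pearson 95% interval 81.2 to 89.4%). In library 2, 57 were Spretus and 9 C57, a share of 86.4% (75.7 to 93.6%). The mean share was 86.0% ± 0.493 (SD, n = 2), and no difference between the libraries was detected (Fisher's exact test on reads, two-sided, p = 1). In the quasi-likelihood test of edgeR, with p-values adjusted by Benjamini-Hochberg over all genes, Grb10 (ENSMUSG00000020176.16, 11930508 to 12038683) stood at 2.70 on the log2 scale of Spretus over C57 (SE 0.22, adjusted p = 3.99e-06), a 6.51-fold higher level on Spretus with a 95% interval of 4.64 to 9.13-fold. This fold holds after each allele column was scaled, and the raw ratio of Grb10 reads summed over libraries was 6.04. Toward Spretus the edgeR test called 277 of 11584 autosomal genes (2.39%), toward C57 352 (3.04%), and 5.43% in either direction. Grb10 was also called with the library as a block, which calls 22.5% of autosomal genes, and by DESeq2, which calls 2.2%. Of the 11584 genes, 62 had a higher ratio than Grb10.

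The bias was not complete. The C57 allele supplied 14.3% of Grb10 reads in library 1 and 13.6% in library 2, and the upper limits of the Spretus share were 89.4% and 93.6%. Counts are per gene, so reads starting at the upstream and at the internal promoter were not separated, and whether counting used strand is not given in the labels. In bulk tissue, fewer cells of a type and less RNA per cell cannot be told apart, nor can cells that use different alleles. Astrocyte markers summed to 0.817 and oligodendrocyte markers to 0.561 of library 1 in the rescaled library 2. Pan-neuronal markers summed to 1.28, excitatory ones to 0.952 and inhibitory ones to 1.015. The Grb10 share was 86.4% in library 2 and 85.7% in library 1. The part of these cell types in the C57 reads was not tested.

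**Figure D3:**
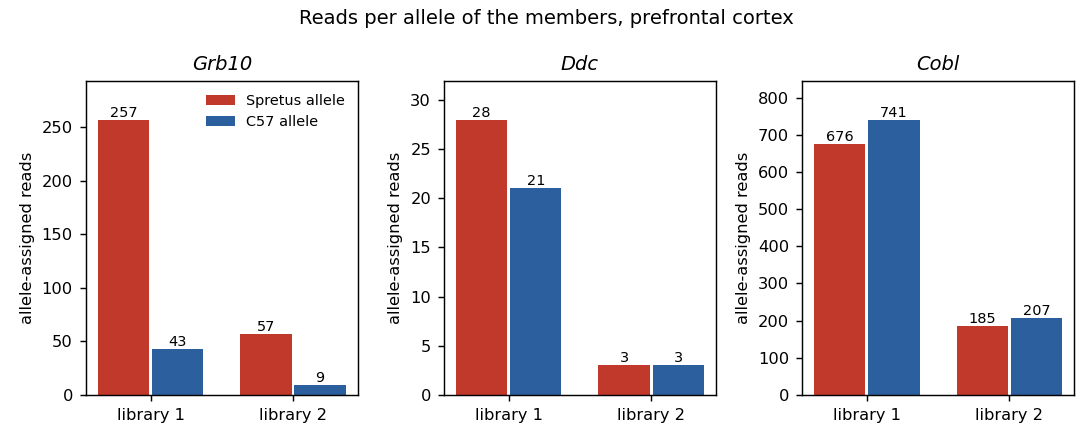
Allele-assigned reads (not scaled for depth) of Grb10, Ddc and Cobl in each RNA library, Spretus left of C57. Grb10 had 257 Spretus against 43 C57 reads in library 1 and 57 against 9 in library 2, and the alleles of Cobl were close to each other.

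Cobl, on the far side of Grb10 from Ddc, drew on both alleles. It had 676 Spretus and 741 C57 reads in library 1, a share of 47.7% (45.1 to 50.3%), and 185 and 207 in library 2, a share of 47.2% (42.2 to 52.3%). Its mean share of 47.5% ± 0.362 (SD, n = 2) lay beside the median of 48.1% over tested autosomal genes, whose quartiles were 44.3 and 51.3%. In the edgeR test, Cobl (ENSMUSG00000020173.16, 12236608 to 12464960) stood at -0.02 on the log2 scale (SE 0.21, adjusted p = 0.983). The 95% interval of -0.47 to 0.43 allows a Spretus over C57 fold of 0.720 to 1.35. That fit does not pair the alleles by library. With the library as a block, the log2 ratio of Cobl was -0.0077 with a smaller SE of 0.058. The Grb10 and Cobl intervals of the share did not overlap in either library.

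Ddc, the neighbour of Grb10 at lower coordinates, was too low to test. It had 28 Spretus and 21 C57 reads in library 1 (57.1%, 42.2 to 71.2%) and 3 and 3 in library 2 (50.0%, 11.8 to 88.2%). Those 6 reads in library 2 were under the minimum of 10, so 2 of the 3 members passed the filter. Summed over libraries, the Ddc share was 56.4% (42.3 to 69.7%), which includes the autosomal median and lies wholly below the Grb10 interval of 81.8 to 89.2%. With no filter on low counts, edgeR gave Ddc (ENSMUSG00000020182.15, 11814101 to 11898144) a log2 ratio of 0.49 (SE 0.45, adjusted p = 0.717).

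The window from 11 to 13 Mb held 25 rows of the RNA tables, and 10 had any allele-assigned read. Besides Grb10 and Cobl, Vwc2 alone had at least 10 reads in each library. Vwc2, a secreted inhibitor of bone morphogenetic proteins, had 42 Spretus against 63 C57 reads in library 1, and 14 against 13 in library 2. Its log2 ratio was -0.25 in the edgeR test (SE 0.30, adjusted p = 0.783). Ikzf1, a transcription factor gene of lymphocytes, had 32 Spretus against 24 C57 reads in library 1, and 2 against 0 in library 2. Fignl1, which lies between Ikzf1 and Ddc and encodes an ATPase of DNA repair, had 8 Spretus against 9 C57 reads, and 2 against 1. Of the 3 genes tested in this window, Grb10 alone was called. The noncoding 1700042O10Rik lies inside Ddc with 0 reads, and Gm12002 lies inside Cobl with 1 read.

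By level per length, Cobl stood above Grb10 and Grb10 above Ddc in each library. In library 1, Cobl stood at 33.6 FPKM, Grb10 at 13.2 and Ddc at 1.94, and in library 2 at 5.63, 1.87 and 0.341 in the same order. Rescaled by the median ratio, the library 2 levels were 31.7 FPKM for Cobl, 10.5 for Grb10 and 1.92 for Ddc, so each step of this order was larger than the gap between the libraries. Grb10 stood at 0.796 of its library 1 level after rescaling. In library 1, Cobl lay above 94.8%, Grb10 above 87.5% and Ddc above 71.9% of gene identifiers, many of which are at 0. Genes that mark monoaminergic cell bodies, the cells best known for Ddc, were low, and the highest of the 7 were at about the level of Ddc itself. In library 1 the vesicular monoamine transporter gene Slc18a2 stood at 1.63 FPKM, Tph2 at 1.58 and Th, which encodes the enzyme before Ddc in dopamine synthesis, at 0.917. Slc18a2 had only 1 allele-assigned read in library 1 and 0 in library 2, against 69 and 16 for Tph2, and the reason was not tested. The dopamine and serotonin transporter genes Slc6a3 and Slc6a4 and the transcription factor gene Fev stood at 0.0294, 0.0724 and 0.0249 FPKM in library 1 and at 0 in the shallower library 2. The summed level of the 7 genes was 4.42 FPKM in library 1 and 0.780 in library 2.

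Of 27 listed genes that act with Grb10 in receptor signalling, 24 were tested, 0 were called toward Spretus and 1 toward C57, with a median log2 ratio of -0.06 against 0.02 over all tested autosomal genes. The 1 call stood near the 5.43% of all tested autosomal genes. With the library as a block 6 of the 24 were called, near the 22.5% of all such genes. The gene called without the block was Igf2, a growth factor ligand of the pathway, with 79 Spretus against 222 C57 reads in library 1, and 24 against 75 in library 2. The receptor genes that Grb10 protein binds, named here for that role, each had a mean share near the autosomal median, 48.5% ± 2.61 for Insr and 49.2% ± 5.76 for Igf1r (SD, n = 2). Insr had 267 Spretus against 305 C57 reads in library 1, and 69 against 68 in library 2, and Igf1r had 171 against 208, and 49 against 43. Grb14, which encodes an adaptor of the same family as Grb10, had 67 Spretus against 92 C57 reads in library 1, and 15 against 37 in library 2. Its log2 ratio of -0.63 was not called in the edgeR test (SE 0.29, adjusted p = 0.279).

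Around Ddc, 8 of 26 listed monoamine genes were autosomal and tested, with 1 called toward Spretus and 0 toward C57, where 2.39% and 3.04% of all tested autosomal genes were called. That gene was Tph2, the rate-limiting enzyme of serotonin synthesis in neurons and the step before Ddc. Tph2 had 61 Spretus against 8 C57 reads in library 1, and 15 against 1 in library 2, a mean share of 91.1% ± 3.78 (SD, n = 2). Its log2 ratio was 3.18 in the edgeR test (SE 0.38, adjusted p = 9.72e-05), at a level of 1.58 FPKM in library 1 and 0.368 in library 2. Without library 1, which leaves 16 reads and no test, it was 3.86. The median log2 ratio of the list was -0.29, and 6 of the 8 were called with the library as a block, which calls 22.5% of all tested autosomal genes. Another 3 tested genes, Maoa, Maob and Htr2c, lie on the X chromosome, where Xist itself was read almost only from the Spretus copy. Maoa had 14 Spretus against 156 C57 reads in library 1, and 2 against 49 in library 2. Maob had 1 against 150, and 0 against 42, and Htr2c 0 against 92, and 0 against 23. Around Cobl, 20 of 25 listed actin genes were tested and 0 were called toward either allele by edgeR, with 0 at an unadjusted p under 0.05, 0 called by DESeq2 and 1 with the library as a block. Over all tested autosomal genes these shares were 5.43% for edgeR, 2.2% for DESeq2 and 22.5% for the block, and 0 of 20 is near the first pair of shares. Among the members with most reads, Spire1, Pacsin1 and Calm3 had mean shares of 45.4% ± 1.05, 50.7% ± 3.12 and 48.0% ± 0.525 (SD, n = 2). The syndapin encoded by Pacsin1 is known to bind cordon-bleu. Spire1 was called toward C57 with the library as a block in the edgeR test (log2 ratio -0.16, adjusted p = 0.0425).

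**Figure D4:**
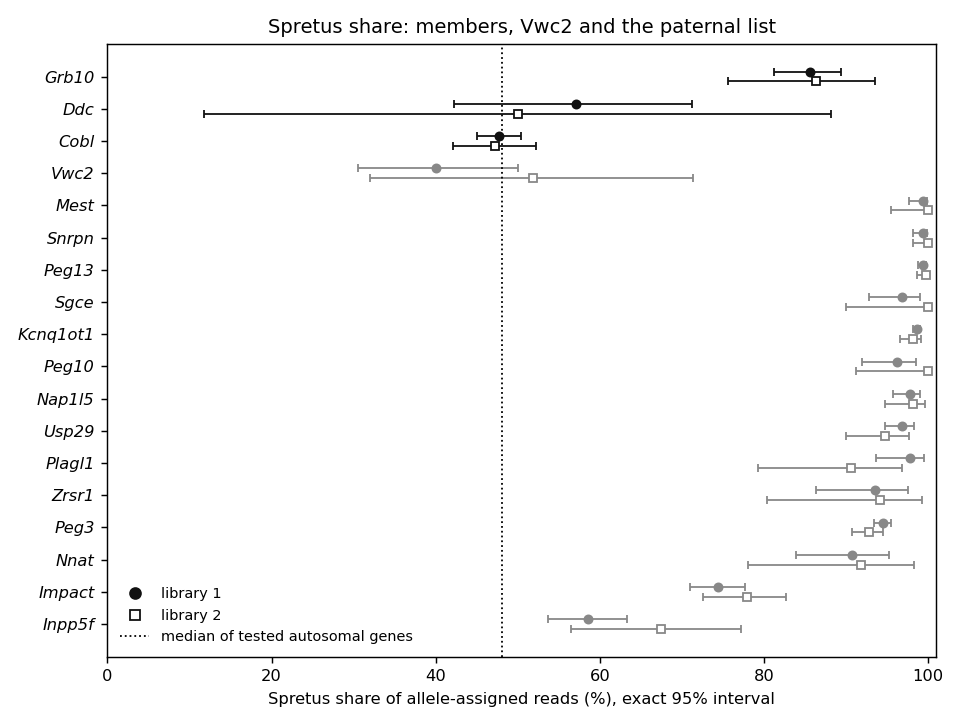
Spretus share of allele-assigned reads (%) with exact 95% intervals for Grb10, Ddc, Cobl, Vwc2 and the 14 tested genes of the paternal list, in library 1 (filled circles) and library 2 (open squares). The dotted line is the median of 48.1% over tested autosomal genes: Grb10 stands at 85.7 and 86.4%, below most of the paternal list and above Impact and Inpp5f.

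Beside imprinted genes known for paternal expression in brain and a maternally methylated region, Grb10 had a lower Spretus share than most. Of 15 such genes, 14 were tested and all 14 were called toward Spretus, against 2.39% of tested autosomal genes; Inpp5f lost its call under 3 alternatives. The list was drawn up from known imprinting with earlier results of these data in view. Their mean shares ran from 63.0% for Inpp5f, a phosphoinositide phosphatase gene, to 99.7%, with a median of 96.9%. Grb10 lay below 12 of them and above 2, Inpp5f and Impact, a regulator of translation under stress (76.2% ± 2.51, SD, n = 2). Nnat, which encodes a small membrane protein of neurons, was next above Grb10 with 107 Spretus against 11 C57 reads in library 1, and 34 against 3 in library 2. All 15 genes had a listed region within 2 kb whose longest was higher on C57, with levels of 0 to 0.140 on Spretus and 0.870 to 0.972 on C57. Peg10 and Sgce share 1 such region, as do Peg3 and Usp29, so the genes are not independent. Their longest regions had a median of 1820 bp and ran from 501 bp at Mcts2 to 5022 bp, and the 517 bp at Grb10 lay near the short end. The levels at the downstream Grb10 region, 0.0423 on Spretus and 0.904 on C57, fell within these ranges. The levels at its promoter region, 0.156 on Spretus and 0.981 on C57, both lay just above. The ranges hold only the longest region of each gene, whereas the promoter region, at 159 bp, is the shorter one at Grb10. Shorter regions of the list genes were not set beside it.

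Among 4911 other tested autosomal genes with at least as many reads as Grb10, the summed Spretus shares nearest to its 85.8% were those of Serpina3n (83.9%), Rasgrf1 (90.4%) and Peg3 (94.1%), over the 2 libraries. Serpina3n, a serine protease inhibitor gene known from reactive astrocytes, stood 1.90 percentage points below Grb10. Rasgrf1, an exchange factor gene known as paternally expressed in brain, stood 4.66 points above. For Cobl, Lynx1, Dclk1 and Pcdh7 were nearest among 454 genes, all within 0.0268 percentage points of the 47.6% of Cobl.

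**Figure D5:**
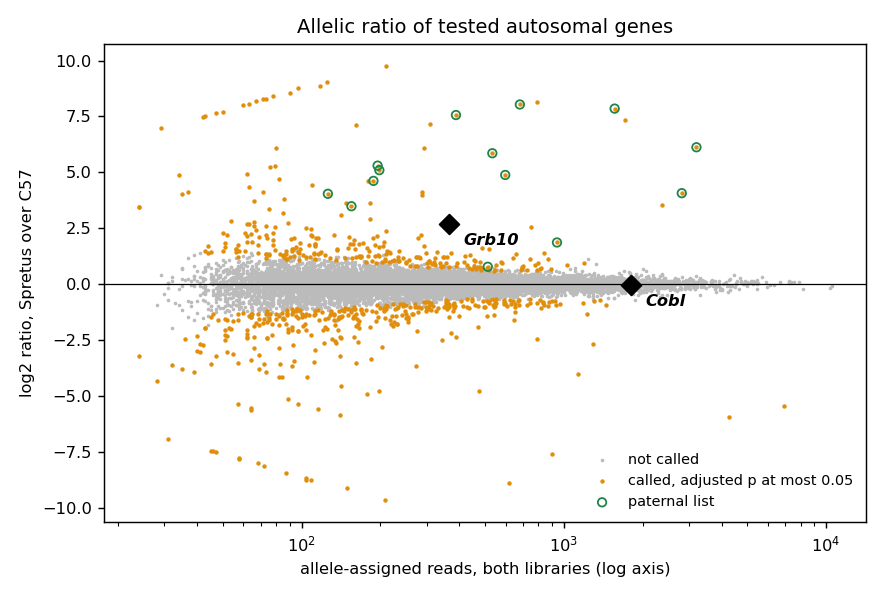
Log2 ratio of Spretus over C57 against summed allele-assigned reads (log axis) for the 11584 tested autosomal genes, with called genes in orange and the paternal list circled in green. Grb10 lies at 2.70 and Cobl at -0.02 (diamonds); Ddc was below the read minimum and is not plotted.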

How the data were processed

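RNA-seq and MethylC-seq were measured in 2 libraries each. Raw counts of reads, split by gene and allele, and an FPKM level over both alleles were deposited per RNA library, per the file headers. The submitters' processing notes name the genome build mm10 and, without their roles, HTSeq 0.6.0, TopHat2 2.0.9, bedtools 2.2.4 and Cufflinks 2.1.1. How reads were assigned to alleles, which annotation was used and whether strand was used are not given in the sources at hand. The deposited methylation values are fractions from 0 to 1 per allele and region; 13 regions without levels were left out. The 49 identifiers at more than 1 locus repeat their counts and entered once. Gene starts were counted from 1.

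Allelic ratios were fitted with edgeR 4.0.16 in R 4.3.3 (glmQLFit, glmQLFTest, TMM) on the 4 allele columns with allele as the only term, for 11981 genes with at least 10 reads in each library. P-values were adjusted by Benjamini-Hochberg over all of them, with a threshold of 0.05. The fit had 2 residual degrees of freedom per gene and borrowed 9.34 prior ones from the spread over all genes. The SE is the log2 ratio divided by the root of F. DESeq2 1.42.0, the library as a block, other scalings, other read minimums and leaving out a library were alternatives. Both alleles were read from 1 RNA sample per library, which pairs the columns; their deviations had a correlation of 0.597 over 7565 genes. Intervals on shares are exact Clopper-Pearson and cover counting error only, since reads carry no molecular identifiers. Promoter sequences are from RefSeq (GRCm38.p6, the same assembly as mm10), where all 3 genes matched by symbol. With a cross in a single direction, the effects of strain and of parent cannot be told apart. The genes, lists and markers were chosen with earlier results of these data known. The text names the members, genes of the window with at least 10 reads in each library, list genes that were called or, with none called, the 4 with most reads (1 of them is not reported here), and the 3 genes nearest in share; Ikzf1, Fignl1, Insr, Igf1r and Grb14 were added for their place or role, and Nnat, Mcts2, Th, the genes with shared regions, the X-linked genes, Tex14 and Hspd1-ps3 after their values were seen.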

Additional observations from a re-analysis of the deposited data

How the results depend on the processing

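Grb10 was called toward Spretus, and Cobl was not called, under each of the 6 alternatives with a test. The number of autosomal genes called, 629, became 2603 with the library as a replicate block, 255 by DESeq2, 1290 with no filter on low counts and 165 with at least 50 reads in each library; the cause was not tested, beyond the numbers of genes tested (22103 without the filter and 6369 with the higher minimum). With 1 library total for both alleles, the median autosomal log2 ratio moved to -0.11, against 0.02, the share of calls toward C57 to 69.7%, against 56.0%, the Grb10 ratio to 2.56 and the Cobl ratio to -0.15. Leaving out a library gave log2 ratios of 2.71 to 2.76 for Grb10 and -0.05 to 0.0047 for Cobl, and shares of 85.7 to 86.4% for Grb10, 50.0 to 57.1% for Ddc and 47.2 to 47.7% for Cobl; with 1 library left these are values with no test. Vwc2 stood at 0.22 without library 1 and at -0.45 without library 2. Requiring regions of at least 200 bp with a difference of at least 0.5 left 1 region at Grb10. Among 28 genes and 162 recomputed ratios, 156 kept direction and call. Inpp5f lost its call in 3 alternatives (log2 ratios 0.82 by DESeq2, 0.65 with shared totals and 0.75 with at least 50 reads), Spire1 gained one with the block, and Calm3, never called, turned to 0.017 with the block and 0.0040 with no filter. Depth limits Ddc most, with 6 reads in library 2.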

Other observations

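Of 916 tested genes on chromosome 11, 3 had a higher ratio of Spretus over C57 than Grb10. Zrsr1, a splicing factor retrogene known for paternal expression, had 86 Spretus against 6 C57 reads in library 1, and 32 against 2 in library 2. Tex14, a gene known from the testis, had 66 Spretus against 3 C57 reads in library 1, and 13 against 0 in library 2. Hspd1-ps3, a pseudogene of the chaperonin gene Hspd1, had 33 Spretus against 0 C57 reads in library 1, and 10 against 0 in library 2; its reads may be shared with near-identical copies, so its value is uncertain.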
